A study of Mus musculus with 32 samples.

Results

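Protocadherins are the largest branch of the cadherin superfamily of calcium-dependent adhesion proteins. The clustered genes lie side by side in the alpha, beta and gamma arrays. Each neuron switches on its own mix of them, through promoter choice that involves CTCF and cohesin, and the proteins recognize their own kind on other membranes, so that branches of one cell avoid each other. The beta genes each hold their whole protein in a single exon, whereas the variable exons of the alpha and gamma arrays are spliced to shared constant exons. The non-clustered genes are scattered, and most fall into a delta 1 group, whose cytoplasmic tails carry a binding motif for protein phosphatase 1, and a delta 2 group, several of which recruit the WAVE complex that builds actin.

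The protocadherin genes were taken as all protein-coding rows of the tumor count table whose mouse symbol begins with Pcdh, leaving out Pcdh15, a hair cell and photoreceptor gene. The rule gave 35 of 37310 rows, and it used no measured value. They were 22 beta genes, 1 alpha row, 1 gamma row and 11 non-clustered genes (4 of delta 1, 5 of delta 2, and Pcdh12 and Pcdh20). All 35 passed the filter on low counts, which required a CPM (counts scaled to library size after TMM normalization) above 1 in at least 3 tumors and was passed by 21024 genes. The GENCODE M21 annotation lists 14 alpha and 21 gamma genes, of which 13 and 20 have no row. The alpha row carries the identifier that M21 names Pcdha11, and the gamma row the one it names Pcdhgc4. Whether these rows also hold the reads of the other alpha and gamma transcripts is not settled by the table, so they are called the alpha row and the gamma row. Beta genes are close paralogs, and how reads matching several of them were counted is not stated, so the division of counts among single beta genes is uncertain.

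RNA came from frozen brain tumor biopsies of 2 transgenic mouse models of medulloblastoma. GMYC mice carry Glt1-tTA and TRE-MYC, so that a transactivator made in cells using the Glt1 glutamate transporter promoter turns on MYC unless doxycycline is given, and GTML mice carry Glt1-tTA with a MYCN transgene under the same control. There were 6 GMYC and 8 GTML tumors, with no normal cerebellum among them. By the study's methods all transgenic crosses were on an FVB/N background. The labels used give no age or sex of the mice and do not say that each biopsy came from its own animal, so p-values measure the spread between these samples. Most GTML tumors had been generated for earlier work, by the study's methods, so the driver and the time of sequencing cannot be fully told apart.

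Total counts were 6218378 to 7279811 in GMYC tumors and 4602294 to 6317404 in GTML tumors. The driver genes followed the labels, with Myc at 33.4 to 165.5 CPM in GMYC and 2.60 to 8.68 CPM in GTML tumors, and Mycn at 7.65 to 34.4 CPM and 118.7 to 191.0 CPM. These are rows of mouse genes, from reads aligned to the mouse genome. The study describes the GMYC transgene as human MYC, so how much transgene RNA the Myc row holds is not settled here. GMYC tumor 6 had the lowest Myc level of its model. GTML tumor 2 stood apart in its photoreceptor genes, whose summed level was 179.1 CPM against 688.1 to 1674 CPM in the other GTML tumors. Small nucleolar RNAs took a share of counts that was 0.366% or more in 6 tumors (GMYC tumors 1 to 4, GTML tumors 1 and 2). It was 0.272% or less in the other 8, and values are repeated below within this split. The split follows the order of the deposited samples, in which those 6 tumors come first. The labels give no reason for it. GMYC and GTML tumors are unevenly divided between its sides, so model and split are partly confounded. Markers of other cells overlapped between the models in summed level for the endothelium, fibroblast, oligodendrocyte, oligodendrocyte precursor, astrocyte, mature cerebellar neuron and microglia lists.

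GTML tumors held more protocadherin RNA than GMYC tumors, and the difference lay mainly in the clustered genes. By edgeR's quasi-likelihood test, with Benjamini-Hochberg adjustment over all genes tested and a threshold of 0.05, 21 of the 35 genes were higher in GTML and 1 was higher in GMYC. Of all genes tested, 11.5% were called higher in GTML tumors and 9.71% in GMYC tumors. The 21 were 18 of the 22 beta genes, the alpha row, the gamma row and Pcdh8, and the 1 was Pcdh20. The median log2 fold change, given throughout as GTML over GMYC, was 1.06 for the 35 genes against 0.036 for all genes tested. It was 1.35 for the beta genes and 0.36 for the non-clustered genes. At an unadjusted p under 0.05 there were 28 protocadherin genes in either direction, beside 37.8% of all genes. Under the stricter thresholds of the study's volcano plot (adjusted p under 0.01, and log2 fold change beyond 1 in size) the count turned on GTML tumor 2 and on the tool. With all 14 tumors 0 protocadherin genes and 676 genes in all passed by edgeR, against 1 protocadherin gene (Pcdhb1) by limma-voom and 14 beta genes by DESeq2. The study drew its plot by limma-voom from 7 GTML tumors. It describes 1 outlier GTML tumor that also resembled another medulloblastoma subgroup (SHH). The labels do not say which tumor that was, and limma-voom was not run here without GTML tumor 2. By edgeR without GTML tumor 2 those thresholds were passed by 14 beta genes, higher in GTML as were 4.96% of all genes.

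**Figure D1:**
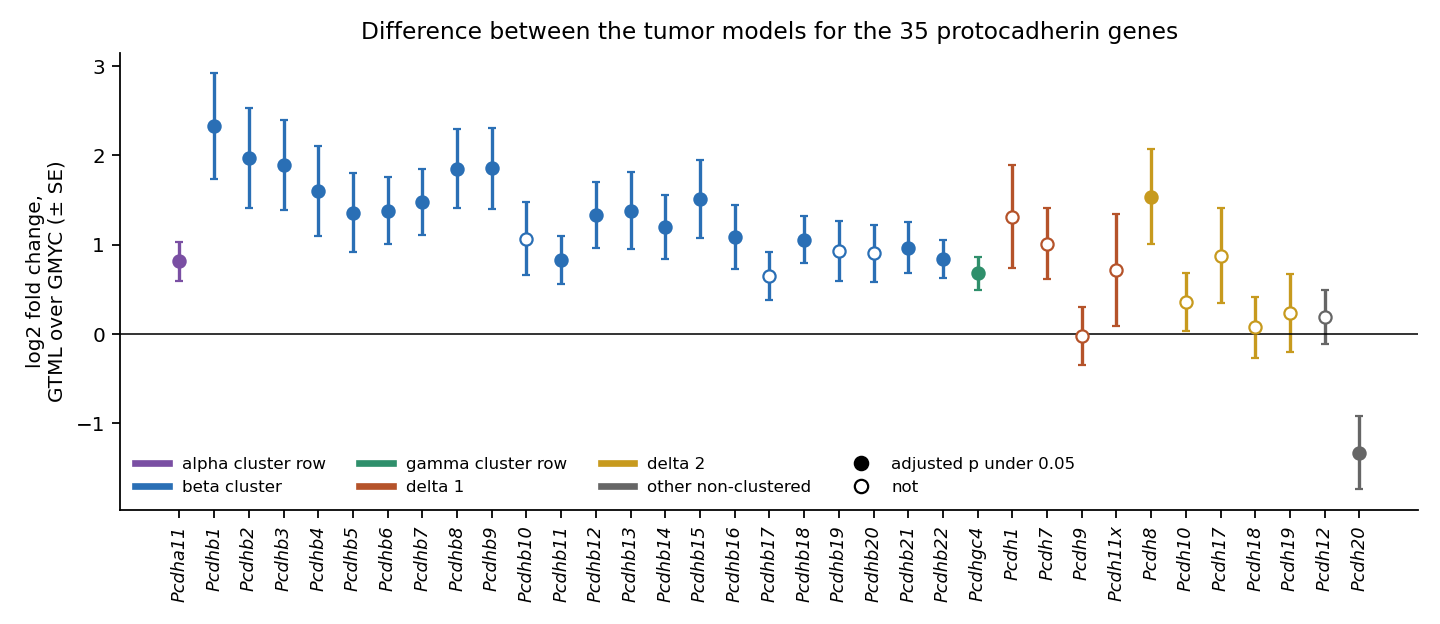
Log2 fold change, GTML over GMYC, with its standard error (vertical axis) for each of the 35 protocadherin genes (horizontal axis), colored by family, with the beta genes in their order along the chromosome. Filled points passed an adjusted p of 0.05 in edgeR's quasi-likelihood test and open points did not; all 24 clustered genes lie above 0, and Pcdh20 is the only filled point below it.

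The calls changed with single tumors, and the spread was wide. The median biological coefficient of variation was 0.466 for the protocadherin genes against 0.354 for all genes. Among the fits that left out 1 tumor, the number higher in GTML fell to 12 without GMYC tumor 1 and 11 without GMYC tumor 3. It was 13 without GMYC tumor 5 and 13 without GTML tumor 7. Over all genes tested, calls higher in GTML fell too, from 2418 with all tumors to 1730, 1433, 1569 and 1674 in those fits, in the same order. Without GTML tumor 2 the protocadherin number rose to 25, when 15.6% of all genes were called higher in GTML. Called in all 14 fits that left out 1 tumor were 10 genes, namely the alpha row and 9 beta genes (Pcdhb1, Pcdhb3, Pcdhb6, Pcdhb7, Pcdhb8, Pcdhb9, Pcdhb12, Pcdhb18 and Pcdhb22, the set chosen after their values were seen). How many of all genes were called in every one of these fits was not counted.

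The summed level of the 22 beta genes was 465.8, 740.2, 481.6, 668.6, 371.7 and 194.6 CPM in GMYC tumors 1 to 6. It was 1591, 412.5, 1467, 1139, 980.6, 855.4, 1461 and 926.0 CPM in GTML tumors 1 to 8. The means were 487.1 ± 198.2 (SD, n = 6) and 1104 ± 393.6 CPM (SD, n = 8). Every GTML tumor except tumor 2 lay above every GMYC tumor, and GTML tumor 2 lay below 4 of the GMYC tumors. These sums rested on 1376 to 9020 counts per tumor.

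The alpha row was 134.6, 150.0, 128.7, 187.3, 95.3 and 138.0 CPM in the GMYC tumors. In the GTML tumors it was 351.1, 103.0, 317.1, 279.4, 245.5, 229.7, 223.7 and 207.4 CPM. Again the models overlapped only through GTML tumor 2, with a log2 fold change of 0.82 (SE 0.216, adjusted p = 0.0171 by edgeR). The gamma row ran from 170.9 through a median of 249.9 to 341.9 CPM in GMYC and from 227.0 through 412.3 to 503.8 CPM in GTML tumors. Its models overlapped through GTML tumors 2 and 4, the latter at 334.9 CPM against the 341.9 CPM of GMYC tumor 4. The gamma row was higher in GTML by a log2 fold change of 0.68 (SE 0.188, adjusted p = 0.0211 by edgeR), a call lost without GMYC tumor 3 (adjusted p = 0.0542).

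**Figure D2:**
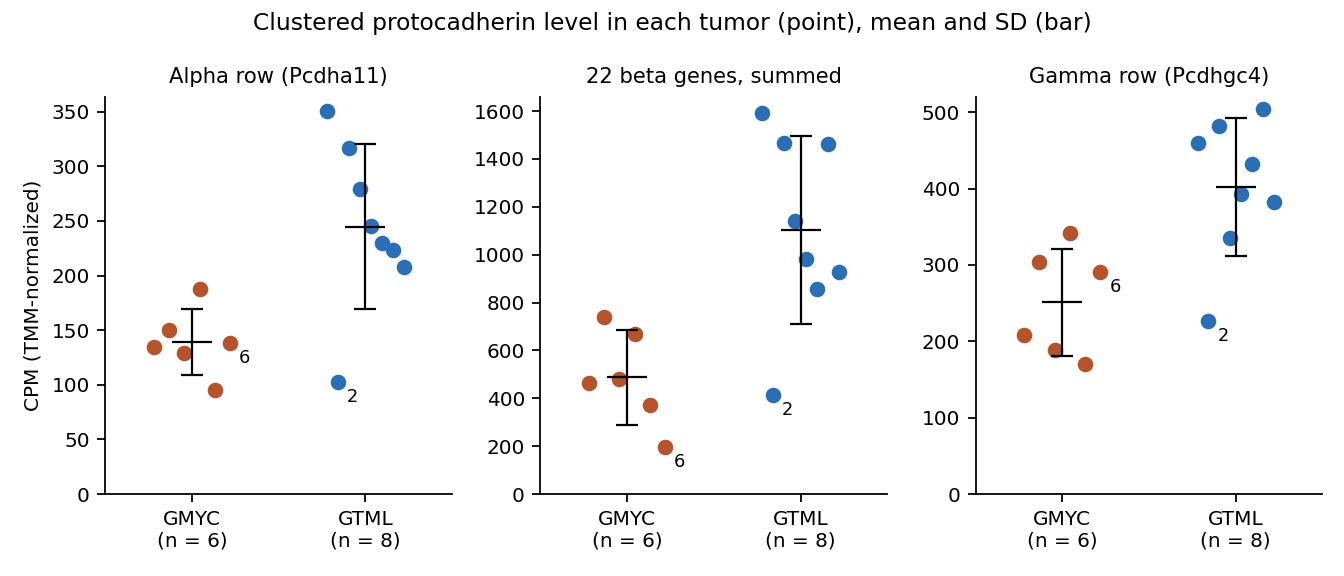
Level in CPM (vertical axes, from 0) of the alpha row, the summed beta genes and the gamma row in each GMYC (n = 6) and GTML (n = 8) tumor, 1 point per tumor, with the mean and SD. GMYC tumor 6 and GTML tumor 2 are numbered; in each panel GTML tumor 2 is the lowest GTML tumor, and for the beta genes GMYC tumor 6 is the lowest of all at 194.6 CPM.

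Among single beta genes, Pcdhb8 had the smallest p. Its level was 6.17, 15.1, 10.3, 8.36, 3.22 and 2.83 CPM in GMYC tumors 1 to 6 and 35.4, 6.83, 44.1, 17.0, 22.2, 38.6, 38.1 and 19.1 CPM in GTML tumors 1 to 8. Of the GTML tumors, 7 of 8 exceeded every GMYC tumor, and the log2 fold change was 1.85 (SE 0.441, adjusted p = 0.0115 by edgeR). Pcdhb1, the first gene of the array and its least abundant, had the largest change. It was between 0.283 and 3.94 CPM in GMYC tumors (median 1.63) and between 2.60 and 24.3 CPM in GTML tumors (median 7.41), a log2 fold change of 2.33 (SE 0.589, adjusted p = 0.0145 by edgeR). It was counted as few as 2 times in a tumor, and its SE was the largest of the beta genes.

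Pcdhb9, Pcdhb7 and Pcdhb18 completed the 5 smallest p-values of the array. Pcdhb9 ran from 1.27 through 6.25 to 14.2 CPM in GMYC and from 9.76 through 22.2 to 45.1 CPM in GTML tumors, lowest, median and highest, with a log2 fold change of 1.86 (SE 0.455). Pcdhb7 ran from 5.09 through 21.6 to 38.7 CPM and from 26.7 through 62.3 to 86.9 CPM, with a log2 fold change of 1.48 (SE 0.368). Pcdhb18 ran from 20.2 through 26.3 to 34.2 CPM and from 21.96 through 52.3 to 79.9 CPM, with a log2 fold change of 1.06 (SE 0.264). In each of the 3 genes every GTML tumor other than tumor 2 lay above the highest GMYC tumor, and the adjusted p was 0.0129 for Pcdhb9, 0.0135 for Pcdhb7 and 0.0137 for Pcdhb18 by edgeR.

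The genes with the most beta counts were Pcdhb11, Pcdhb19 and Pcdhb6. Pcdhb11 ran from 28.0 through 64.7 to 93.6 CPM in GMYC and from 52.2 through 101.7 to 165.6 CPM in GTML tumors, and 4 of 8 GTML tumors exceeded every GMYC tumor. Its log2 fold change of 0.83 (SE 0.267) had an adjusted p of 0.0380 by edgeR, and the call was lost in 9 of the 14 fits without 1 tumor (highest adjusted p 0.0833). Pcdhb6 ran from 5.09 through 28.6 to 51.6 CPM and from 38.1 through 77.0 to 102.5 CPM, with 7 of 8 GTML tumors above every GMYC tumor and a log2 fold change of 1.38 (SE 0.375, adjusted p = 0.0192). Pcdhb19 ran from 26.4 through 52.1 to 94.8 CPM and from 31.2 through 109.8 to 173.7 CPM, and its log2 fold change of 0.93 (SE 0.336) did not pass (adjusted p = 0.0573). The other beta genes that did not pass, Pcdhb10, Pcdhb17 and Pcdhb20, had log2 fold changes of 1.07, 0.65 and 0.90 with adjusted p-values of 0.0697, 0.0922 and 0.0529. All 22 beta genes had a positive log2 fold change and an unadjusted p under 0.05.

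**Figure D3:**
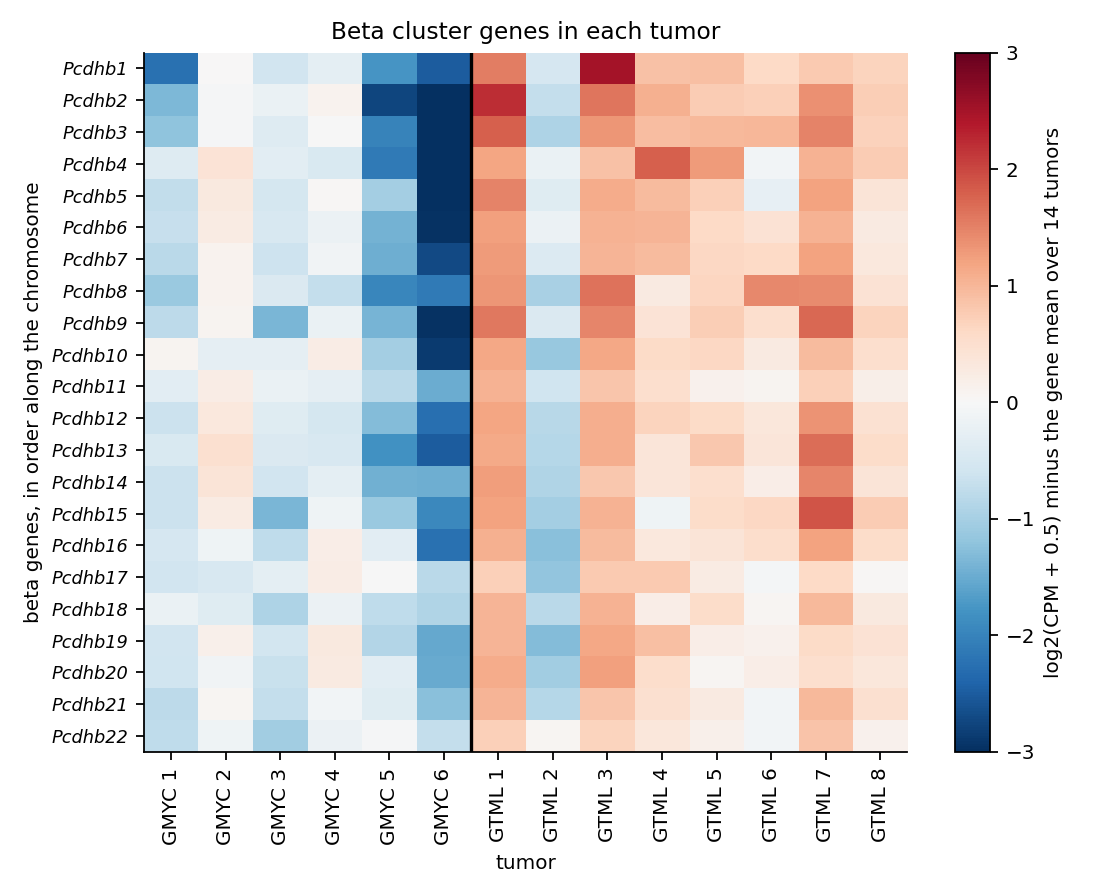
Each cell gives the log2(CPM + 0.5) of a beta gene (rows, in chromosomal order) in a tumor (columns; GMYC left, GTML right of the black line) minus that gene's mean over the 14 tumors, so red is high and blue is low. GMYC tumor 6 is the bluest column and GTML tumor 2 is the blue column within GTML.

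The beta genes moved together within a tumor. In GTML tumors 1, 3, 7 and 8 all 22 genes lay above their median over the 14 tumors. In GTML tumors 5, 4 and 6 it was 21, 20 and 14 genes, and in GTML tumor 2 it was 1 gene. GMYC tumors 1, 3, 5 and 6 had 0 genes above that median, GMYC tumor 4 had 3 and GMYC tumor 2 had 7. GMYC tumor 6 held the lowest value of the 14 for 19 of the 22 genes, and the highest values were divided among GTML tumors 1 (8 genes), 7 (7 genes), 3 (5 genes) and 4 (2 genes). With all tumors no beta gene separated the models completely, while 2.14% of all genes tested had every GTML tumor above every GMYC tumor. Without GTML tumor 2, 11 beta genes and the alpha row had every GTML tumor above every GMYC tumor, as did 4.41% of all genes tested.

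Leaving out GTML tumor 2 and GMYC tumor 6 together left all 22 beta genes called higher in GTML, with a median log2 fold change of 1.25, beside 14.9% of all genes. The difference was wider among the tumors with little small nucleolar RNA (GMYC tumors 5 and 6 against GTML tumors 3 to 8), where 20 beta genes were called, beside 6.66% of all genes higher in GTML, and the median log2 fold change was 2.51. Its only GMYC tumors, 5 and 6, had the lowest beta sums of all tumors (371.7 and 194.6 CPM). Among the tumors with more small nucleolar RNA (GMYC tumors 1 to 4 against GTML tumors 1 and 2) 0 protocadherin genes were called by edgeR, 2 had an unadjusted p under 0.05, and the beta median was 0.81. That side holds GTML tumor 2, and edgeR called only 2 of its 18921 genes. With a term for the split in the fit of all 14 tumors, 16 beta genes were called, beside 6.79% of all genes. Y-linked genes had 2115 to 3378 counts in the GMYC tumors, 1102 to 2220 in GTML tumors 1, 4, 6 and 7, and 4 to 16 in GTML tumors 2, 3, 5 and 8. Every GMYC tumor thus held Y-linked RNA and GTML tumors 2, 3, 5 and 8 almost none, the pattern of male and female mice. By that reading sex, which the labels do not give, was unevenly divided between the models. With Y-linked expression as a covariate 14 protocadherin genes, of which 11 were beta genes, were called higher in GTML, beside 5.5% of all genes.

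Along the array, the difference between the models was larger at the Pcdhb1 end. The median log2 fold change was 1.60 over the first 11 genes and 1.06 over the last 11, and Spearman's rank correlation between position and log2 fold change was -0.81 across the 22 genes. The same 14 libraries lie behind all 22 points, neighboring genes are not independent, and the changes were also larger in genes of lower level (rank correlation -0.62 with the mean CPM). Over the fits that left out 1 tumor, the rank correlation lay between -0.87 and -0.74. Within the tumors with more small nucleolar RNA it was -0.66, and within those with less it was -0.90.

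**Figure D4:**
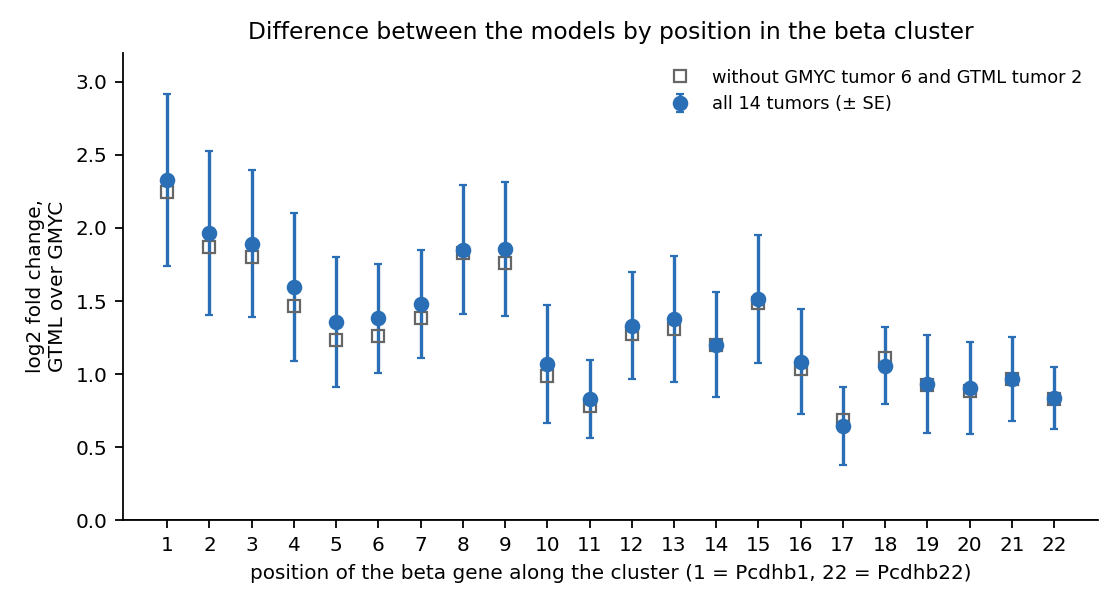
Log2 fold change, GTML over GMYC (vertical axis), of each beta gene against its position along the array (horizontal axis, 1 to 22). Filled points with SE bars use all 14 tumors and open squares leave out GMYC tumor 6 and GTML tumor 2; the values run from 2.33 at Pcdhb1 to 0.84 at Pcdhb22, and the squares stay close to the points.

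The share of beta counts on the first 11 genes also differed between tumors. It was 26.3% in GMYC tumor 6 and 31.8% in GMYC tumor 5, between 40.6% and 47.4% in GMYC tumors 1 to 4, and between 44.1% and 50.3% in the GTML tumors. Thus GMYC tumors 5 and 6 were low, while the other 4 GMYC tumors overlapped the GTML range. No single gene dominated the array: by counts the most abundant was Pcdhb11 or Pcdhb19 in every tumor, and it held 12.1% to 14.4% of beta counts in GMYC and 8.91% to 12.7% in GTML tumors. Per kilobase of unshared exon it was Pcdhb12 in every tumor but GMYC tumor 6, where it was Pcdhb11. The largest share per kilobase was 12.5% to 19.3% over all tumors. The place of Pcdhb12 depends on the exon length used.

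The arrays were also weighed against each other. Of the counts on the 24 clustered rows, the beta genes held 54.2% ± 11.5 (SD, n = 6) in GMYC and 62.0% ± 4.36 (SD, n = 8) in GTML tumors. The range in GMYC was 55.8% to 62.0% apart from GMYC tumor 6, in which the beta genes held 31.2%, the gamma row 46.7% and the alpha row 22.1%. In GTML tumors the beta share was 55.6% to 66.8%, and GTML tumor 2 had the lowest. So GTML tumor 2 was low in all 3 arrays at a beta share near the others, whereas GMYC tumor 6 had a gamma row of 291.1 CPM, within the 170.9 to 341.9 CPM of its model, beside its low beta genes. The alpha and gamma rows lack a length that fits their counting, so these shares are of counts and not of molecules.

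Per kilobase of exon, the most abundant protocadherin genes over the 14 tumors were Pcdhb11 at 19.9, Pcdh18 at 15.2 and Pcdhb6 at 14.3 CPM per kilobase. Pcdhb12 was at 14.0 over its whole annotated exon but at 38.4 if only the bases it shares with no other M21 gene are counted, so its place is uncertain. The lowest were Pcdh11x at 0.240 and Pcdh20 at 0.288 CPM per kilobase. Pcdh18 was thus the most abundant non-clustered gene and stood among the highest beta genes.

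Of the 11 non-clustered genes, Pcdh8 alone was called higher in GTML by edgeR with all tumors. Pcdh8, also known as arcadlin, is a delta 2 protein induced by neuronal activity that draws N-cadherin off the surface. Its level was 3.73, 3.38, 1.84, 16.3, 7.08 and 3.39 CPM in GMYC tumors 1 to 6. In GTML tumors 1 to 8 it was 42.0, 11.9, 14.8, 14.4, 13.6, 27.7, 10.6 and 4.13 CPM. The models overlapped, since GMYC tumor 4 lay above 6 GTML tumors and GTML tumor 8 lay below GMYC tumors 4 and 5. The log2 fold change was 1.54 (SE 0.529, adjusted p = 0.0487 by edgeR), just under the threshold. The call held in 3 of the 14 fits without 1 tumor, those without GMYC tumor 4 (adjusted p = 0.0129), GTML tumor 2 or GTML tumor 8, and the adjusted p reached 0.101 in the others.

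Pcdh20, a protocadherin outside both delta groups, was the reverse. Its level was 2.58, 0.985, 1.07, 5.26, 2.09 and 2.54 CPM in the GMYC tumors. In the GTML tumors it was 0.529, 0.976, 1.66, 1.28, 0.862, 1.16, 0.566 and 0.611 CPM. GMYC tumors 2 and 3 lay within the GTML range, and the other 4 lay above it. The log2 fold change was -1.33 (SE 0.408, adjusted p = 0.0321 by edgeR). It is a low gene, counted as few as 3 times in a tumor, and the call was lost in 6 of the 14 fits without 1 tumor (GMYC tumor 1, 4 or 6, GTML tumor 5, 7 or 8), with an adjusted p of up to 0.0900 (without GMYC tumor 4).

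Both genes lie on chromosome 14, and the 250 bases before their RefSeq starts (GRCm38.p6) are shown because they are the 2 non-clustered genes that passed the test, in opposite directions. Capitals mark TATAAA on either strand and CACGTG, the E-box that MYC and MYCN proteins bind. The windows are chr14:79771313-79771562 for Pcdh8 and chr14:88471397-88471646 for Pcdh20, both on the minus strand.
Pcdh8: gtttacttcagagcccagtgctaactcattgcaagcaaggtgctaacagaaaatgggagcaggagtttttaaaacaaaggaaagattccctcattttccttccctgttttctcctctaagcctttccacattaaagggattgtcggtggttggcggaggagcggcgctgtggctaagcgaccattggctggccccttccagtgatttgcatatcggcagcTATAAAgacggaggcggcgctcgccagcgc
Pcdh20: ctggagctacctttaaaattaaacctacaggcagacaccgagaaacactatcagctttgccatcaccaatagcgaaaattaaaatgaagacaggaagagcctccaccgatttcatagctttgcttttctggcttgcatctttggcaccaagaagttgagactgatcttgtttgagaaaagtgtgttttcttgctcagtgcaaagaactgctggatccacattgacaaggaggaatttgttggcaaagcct
Pcdh8 holds TATAAA 30 bases before its start, and neither sequence holds CACGTG. In windows from 250 bases before to 50 after the start, CACGTG occurred in 0 of 9 windows of the 8 non-clustered genes with an entry, and in 7.15% of all 32851 windows. TATAAA or its complement TTTATA occurred in 1 of the 9, that of Pcdh8, and in 13.6% of all windows. GGGCGG or its complement CCGCCC, the GC box, occurred in those of Pcdh10, Pcdh17, Pcdh18 and Pcdh19 and in 35.7% of all windows. The GC content was 43.7% for Pcdh20, 54.3% for Pcdh8 and between 59.3% and 67.7% for the others, with a median of 52.7% over all windows. A motif match describes the letters and shows no binding.

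The other delta 2 genes did not pass the test. Pcdh18, whose protein binds the Reelin pathway adaptor Dab1, ran from 43.4 through 64.6 to 158.9 CPM in GMYC and from 28.8 through 90.6 to 134.5 CPM in GTML tumors, with a log2 fold change of 0.078 (SE 0.343, adjusted p = 0.886 by edgeR). Pcdh10, a partner of the WAVE complex in axon growth, ran from 8.86 through 26.9 to 42.3 CPM and from 20.8 through 32.2 to 57.3 CPM (log2 fold change 0.36, SE 0.329, adjusted p = 0.437). The ranges of both genes overlapped over most of their width.

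Pcdh17, which also works through the WAVE complex, had nearly equal medians, 11.4 CPM in GMYC and 11.3 CPM in GTML tumors, within 4.74 to 17.4 CPM and 6.57 to 73.7 CPM. Its log2 fold change of 0.88 (SE 0.531, adjusted p = 0.234) came with GTML tumor 6, at 73.7 CPM against 22.8 CPM in the next tumor, and without that tumor it was 0.16. Pcdh19, an X-linked gene mutated in a childhood epilepsy, behaved likewise, with medians of 7.63 and 7.79 CPM and a log2 fold change of 0.23 (SE 0.436, adjusted p = 0.719) that was -0.11 without GTML tumor 6.

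No delta 1 gene passed by edgeR with all tumors. Pcdh1, found in epithelia as well as brain, ran from 4.10 through 9.02 to 31.8 CPM in GMYC and from 9.12 through 22.3 to 106.5 CPM in GTML tumors. All 8 GTML tumors lay above the GMYC median, but only GTML tumor 6 exceeded GMYC tumor 4, with a log2 fold change of 1.31 (SE 0.575, adjusted p = 0.108 by edgeR). Pcdh7, whose long form binds the histone chaperone Set, ran from 5.81 through 14.1 to 34.2 CPM and from 17.7 through 23.9 to 65.8 CPM, with a log2 fold change of 1.01 (SE 0.400, adjusted p = 0.0789). Without GMYC tumor 4 the adjusted p by edgeR was 0.0350 for Pcdh1 and 0.0194 for Pcdh7. DESeq2 called both with all tumors (adjusted p = 0.0470 and 0.0336), and limma-voom called neither (0.143 and 0.0505).

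Pcdh9, a delta 1 gene widely used in the brain, had the log2 fold change smallest in absolute size of the 35 genes. It ran from 11.01 through 33.0 to 44.9 CPM in GMYC and from 15.8 through 26.4 to 48.9 CPM in GTML tumors, with a log2 fold change of -0.021 (SE 0.321, adjusted p = 0.969). The sign turned with the choice of tumors or tool. Pcdh11x, its X-linked relative, was near the floor of detection, between 0.141 and 6.07 CPM in GMYC and between 1.64 and 12.03 CPM in GTML tumors (log2 fold change 0.72, SE 0.626, adjusted p = 0.412).

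Pcdh12, known as an endothelial protocadherin, ran from 3.25 through 6.43 to 11.1 CPM in GMYC and from 5.11 through 6.57 to 14.5 CPM in GTML tumors (log2 fold change 0.19, SE 0.301, adjusted p = 0.664). Its lowest tumor was GMYC tumor 6, which also had the lowest summed endothelial markers, 89.9 CPM against 134.6 to 319.5 CPM in the other 13 tumors. GTML tumor 6 had the highest endothelial sum, but its Pcdh12 level of 5.63 CPM lay below the GTML median. Pcdh12 thus did not follow the endothelial sum in every tumor. In bulk RNA fewer cells of a type and less RNA per cell cannot be told apart.

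**Figure D5:**
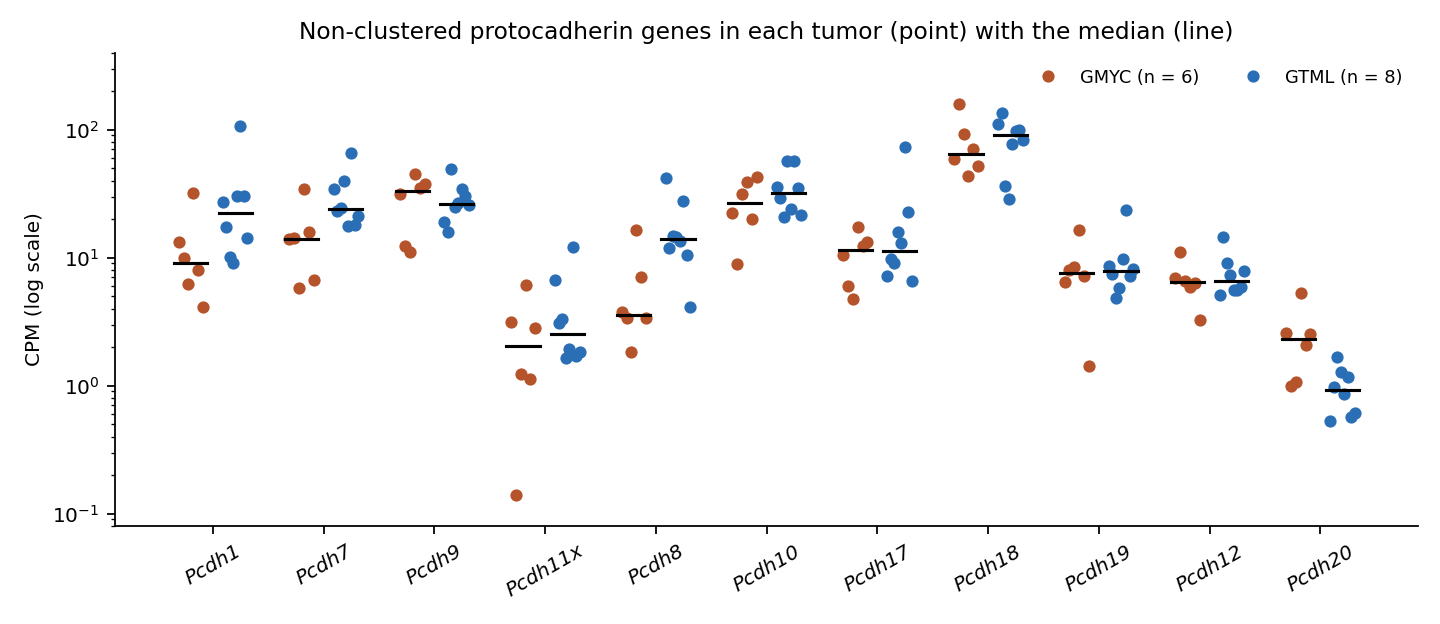
Level in CPM (vertical axis, log scale) of the 11 non-clustered protocadherin genes in each of the 6 GMYC and 8 GTML tumors, 1 point per tumor, with the median as a line. Every gene overlaps between the models; the GTML points of Pcdh8 lie mostly above and those of Pcdh20 mostly below the GMYC points, and single high points mark GTML tumor 6 in Pcdh1, Pcdh7, Pcdh17 and Pcdh19.

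Other genes of the pathway were read from the same fit. Of 25 regulators of the arrays that were tested, 3 were higher in GTML and 2 in GMYC. These shares are near those of all genes tested, 11.5% and 9.71%, so the counts do not set the list apart. They were Mau2, the partner of the cohesin loader Nipbl (log2 fold change 0.42, adjusted p = 0.00733), Wiz (0.69, adjusted p = 0.0238) and Dnmt3a (0.32, adjusted p = 0.0299), and, in the other direction, the heterochromatin protein gene Cbx5 (-0.41, adjusted p = 0.0130) and Dnmt1 (-0.23, adjusted p = 0.0465). Ctcf was at -0.016 and the cohesin subunits Rad21, Smc1a and Smc3 were at -0.15, -0.049 and -0.26, and none of these 4 passed. The median over the list was -0.049.

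Of 32 genes for partners and processing, 1 was higher in GTML and 6 in GMYC, beside 11.5% and 9.71% of all genes tested. The kinase gene Pak3 rose from a mean of 90.4 CPM in GMYC to 256.1 CPM in GTML tumors (adjusted p = 0.0164), while its paralog Pak1 had a log2 fold change of -1.26 (adjusted p = 0.00758), Ctnnb1, the gene of beta-catenin, at -0.39 (adjusted p = 0.00785), and Fyn, a kinase bound by clustered alpha protocadherins, at -0.49 (adjusted p = 0.0138), all by edgeR. The list's median was -0.14.

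Of 38 tested genes for other cadherins, 8 were higher in GTML and 2 in GMYC, beside 11.5% and 9.71% of all genes tested. The median log2 fold change of the list was 0.78. The summed level did not overlap, at 1510 to 2173 CPM in GMYC and 2341 to 3202 CPM in GTML tumors, and GTML tumor 2 was at 2361 CPM. Higher were Dchs1, the ligand of Fat4 in planar polarity (log2 fold change 1.83, adjusted p = 0.00127), Fat3 (1.45, adjusted p = 0.00315) and Cdh13, the cadherin without a cytoplasmic tail (1.86, adjusted p = 0.00581). In the other direction were Dsc2, at -1.61 (adjusted p = 0.0108), and Fat2, a giant cadherin of cerebellar granule cells, at -3.96 (adjusted p = 0.0406). The Fat2 medians ran the other way, 0.494 CPM in GMYC and 1.78 CPM in GTML tumors, beside a highest GMYC tumor at 169.1 CPM.

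Genes beside the arrays and Pcdh1 were not called higher in GTML. Of 20 such neighbors tested, 0 were higher in GTML by edgeR, by DESeq2 or by limma-voom, and 0 had an unadjusted p under 0.05 in that direction in edgeR. Of all genes tested, edgeR called 11.5% higher in GTML and 9.71% higher in GMYC. By edgeR 3 were higher in GMYC, namely Hars (log2 fold change -0.43, adjusted p = 0.0147), Wdr55 (-0.61, adjusted p = 0.0155) and Ndufa2 (-0.48, adjusted p = 0.0302), and the median was -0.070. Taf7 and Slc25a2, which lie between the beta and gamma arrays, were at -0.15 and 0.61 with adjusted p-values of 0.470 and 0.262.

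Apart from the photoreceptor list, markers of cell types and tumor states were called in few cases, beside 11.5% of all genes higher in GTML and 9.71% in GMYC. Higher in GTML were Kdr and Esam of the 12 endothelial genes (log2 fold changes 1.34 and 0.56), the myelin gene Mog of 8 tested oligodendrocyte genes (1.56), and 7 of 9 photoreceptor genes, among them Gnat1 (5.59) and Sag (1.74). Higher in GMYC were Olig2 and Olig1 of 6 oligodendrocyte precursor genes (-2.35 and -1.51), Cbln3 of 9 mature cerebellar neuron genes (-3.39) and Neurod1 of 5 Group 3 tumor genes (-0.23). For Cbln3 the medians ran the other way, 0.907 CPM in GMYC and 1.11 CPM in GTML tumors, beside a highest GMYC tumor at 62.6 CPM, and for Gnat1 the GTML median was 4.57 CPM beside a highest tumor at 121.0 CPM. By limma-voom 2 of the 9 photoreceptor genes were called higher in GTML, and 0 of the precursor and mature neuron genes were called. By edgeR 0 of the 9 fibroblast, 7 astrocyte and 8 microglia genes passed; at an unadjusted p under 0.05 they numbered 0, 2 and 1, DESeq2 called 0, 1 and 1 and limma-voom 0 of each. Summed levels in GMYC and GTML tumors ranged over 89.9 to 223.7 and 162.7 to 319.5 CPM for the endothelium and 81.9 to 734.3 and 57.1 to 1082 CPM for fibroblasts. For oligodendrocytes and their precursors they were 154.9 to 353.1 and 158.7 to 374.1 CPM, and 64.0 to 177.6 and 27.2 to 123.9 CPM. For astrocytes they were 802.8 to 1376 and 539.5 to 965.2 CPM, for mature neurons 366.4 to 624.8 and 271.6 to 584.5 CPM, and for microglia 173.5 to 279.9 and 88.5 to 351.0 CPM. No marker was at 0 in all tumors. The part that these cells or states take in the protocadherin differences was not tested.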

How the data were processed

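Ion Torrent libraries of RNA from 6 GMYC and 8 GTML tumor biopsies were analysed. The authors used STAR, then Bowtie, to align reads to mm9 and featureCounts to assign them to genes, and they deposited whole-number counts without normalization. The submitters' processing notes name STAR 2.4.0, Bowtie2 2.2 and Subread 1.5.2, and the study's methods give other versions of STAR and Bowtie. Treatment of duplicate reads, of strand and of reads matching several paralogs is not given in the sources used here. A further 18 columns of counts matched no sample label and were not used. Symbols and exon lengths came from GENCODE M21 (GRCm38) by identifier, matching 32620 of 37310 rows (87.4%). Apart from the promoter windows of Pcdh8 and Pcdh20 (GRCm38.p6), no gene coordinates are given, because the counts were made on mm9.

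For the test of GTML against GMYC, edgeR 4.0.16 was run under R 4.3.3 (quasi-likelihood test, TMM, CPM above 1 in at least 3 tumors, Benjamini-Hochberg adjustment over 21024 genes, called at an adjusted p under 0.05). The SE is the absolute log2 fold change divided by the square root of F. On simulated counts of this comparison, over 21024 genes, 66 of 100 genes with a 4-fold and 33 of 100 with a 2-fold change were called. Alternatives used DESeq2 1.42.0, limma-voom (limma 3.58.1), other filters and scalings, the replicate number as a block, Y-linked expression as a covariate, the division by small nucleolar RNA (above or below 0.3% of counts) as a term or as separate fits, and 1 tumor fewer. Leaving out GMYC tumor 6 and GTML tumor 2 together, and the study's thresholds without GTML tumor 2 or by DESeq2, were chosen after seeing the data. The precision of a level follows from its counts, and counting error is only part of the spread. The highest count per exon base was 0.212 for a beta or non-clustered gene and 1.27 for any protein-coding gene. Plots used matplotlib 3.10.9 (Python 3.11.15).

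The genes described, the lists and the division by small nucleolar RNA were chosen with earlier results of these data known. Named by rule were all non-clustered genes, the 3 most abundant of each array and the 5 with the smallest p among those called, and the 3 with the smallest p among called genes of every other list, of which 1 is not reported here. Outside that rule, and named after their values were seen, are the other beta genes, Pak3, Dnmt1, Dnmt3a, Fat2, Dsc2, Ctcf, the cohesin subunits, Taf7 and Slc25a2. Since the alpha and gamma arrays have 1 row each, variation among their genes was not analysed here.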

Additional observations from a re-analysis of the deposited data

Results flagged for a closer look

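Among the 35 protocadherin genes in the 2 models, 70 groups of values were searched for a tumor far from the others, by setting the gap to the nearest tumor against the range (Dixon's 95% limit). Such a tumor was found in 10 groups, and in each it was the highest one. The limit would single out about 3.5 groups by chance if values were normal and groups independent. The CPM values were used without a log, and the groups share the same 14 tumors. No excess over chance can therefore be read from the 10. GMYC tumor 4 was far above its model for Pcdh1 (31.8 CPM, next 13.3), Pcdh7 (34.2, next 15.8), Pcdh8 (16.3, next 7.08) and Pcdh20 (5.26, next 2.58). GTML tumor 6 was far above its model for Pcdh1 (106.5 CPM, next 30.2), Pcdh7 (65.8, next 39.8), Pcdh17 (73.7, next 22.8) and Pcdh19 (23.7, next 9.70). The remaining cases were Pcdhb1 in GTML tumor 3 (24.3 CPM, next 12.3) and Pcdh12 in GTML tumor 2 (14.5 CPM, next 9.15).

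GMYC tumor 4 also had the highest summed astrocyte markers (1376 CPM), and GTML tumor 6 the highest endothelial markers of all tumors (319.5 CPM) and the highest mature neuron markers of its model (584.5 CPM). GTML tumor 3 had the highest photoreceptor sum (1674 CPM). Their part in these values was not tested.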

How the results depend on the processing

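Depth limits the low genes, Pcdh20, Pcdh11x and Pcdhb1, whose lowest counts in a tumor were 3, 1 and 2. Against 21 protocadherin genes higher in GTML, 20 to 26 were called without TMM, by DESeq2, by limma-voom, under a stricter filter and with protein-coding genes only, and 19 without a filter. Over all genes, those higher in GTML numbered 2418 of 21024 in the main fit. Of the same 21024 genes they were 2445 without TMM, 3305 by DESeq2 and 2101 by limma-voom. They were 1681 of 14507 under the stricter filter, 1624 of 15441 with protein-coding genes only and 2175 of 32849 without a filter. With the replicate number as a replicate block, 0 were called (24 with an unadjusted p under 0.05; 164 genes higher in GTML and 87 in GMYC among all genes), but same-numbered tumors correlated between -0.212 and 0.24, so the numbers do not pair them and only tumor 1 of GMYC correlated best with its own number. Among the tumors above 0.3% small nucleolar RNA alone, 0 were called (2 unadjusted; 0 and 2 genes among all). With Y-linked expression as a covariate 14 were called. At an adjusted p under 0.01 with a log2 fold change beyond 1 in size, 0 passed with all tumors by edgeR (444 and 232 genes higher in GTML and in GMYC among all), and 14 in GTML and 0 in GMYC passed both without GTML tumor 2 (1038 and 586 genes) and by DESeq2 (1312 and 579), 2 fits chosen after seeing the data. Pcdh20 was not called by limma-voom, with CPM above 5 in at least 6 tumors (not tested), with the block, with the small nucleolar RNA term, on either side of it, or with the Y-linked covariate, a count of 0 in each; its unadjusted p stayed under 0.05 in 4 of these. Over all genes tested, those higher in GTML and in GMYC numbered 1428 with the term (GTML), 1328 and 1334 on the lower side, 1156 and 568 with the Y-linked covariate, and 1360 with protein-coding genes only (GMYC). Without 1 tumor the protocadherin genes numbered 11 to 25 and 0 to 1, all genes 1433 to 3264 and 1184 to 3166, and the median log2 fold change of the 35 genes 0.89 to 1.24. The most abundant beta gene held on average 15.5% (GMYC) and 16.8% (GTML) per kilobase of unshared exon instead of 13.5% and 10.8%, so the model with the larger share changed.

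The 11 named genes that passed kept their sign in all 285 alternatives and their call in 224. Signs turned only in genes that had not passed. Pcdh9 was at 0.0073 by DESeq2, 0.079 by limma-voom, 0.033 with CPM above 5, 0.023 with the block, -0.19 to 0.15 without 1 tumor and 0.16 without GMYC tumor 6 and GTML tumor 2. Pcdh12 was at -0.16 with the Y-linked covariate, -0.0069 to 0.39 without 1 tumor and -0.15 without those 2 tumors. Pcdh18 was at -0.025 with the block, -0.053 to 0.39 without 1 tumor and -0.15 without those 2 tumors. Pcdh17 and Pcdh19 were at -0.17 and -0.27 among tumors above 0.3%, and Pcdh19 at -0.11 to 0.58 without 1 tumor. The causes were not tested. Shares of the arrays per kilobase were not run, since the alpha and gamma rows have no usable length.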
